A study of Mus musculus with 24 samples.

Results

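The genes described here are 36 genes of skeletal muscle, chosen by name from the 23420 entries of the count table: the proteins of the sarcomere, its Z-disc, and the calcium and energy supply of the fibre. All 36 had an entry, and 35 passed the filter on low counts. The slow myosin gene Myh7 did not, with at most 0.396 CPM (CPM is the count scaled to library size) in any library. The genes were chosen with earlier results of these libraries known, so that the presence of muscle transcripts is no finding here. The samples are whole cochleae of CBA/Sca mice aged 12 weeks, in 24 libraries that make 8 groups of 3, named a, b and c. Mice were adrenalectomized (ADX), which takes away the adrenal source of glucocorticoids, or sham-operated. They then received a sham exposure or 1 h of noise in the band 6 to 12 kHz, at a level of 100 dB SPL, beginning at ZT3 (day) or ZT15 (night), where ZT is the number of hours since the lights came on. The 4 groups by day are sham exposure sham-operated, noise sham-operated, sham exposure ADX and noise ADX, and the same 4 exist at night. The design text puts collection 2 h after the noise while the sample labels read ZT11 and ZT23, and the sources used here do not settle which holds. Labels do not say whether the libraries of a group came from separate animals. If they did not, the p-values measure only the spread between these samples, which may be technical.

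A skeletal muscle fibre contracts when thick filaments of myosin pull on thin filaments of actin, which are anchored in the Z-discs at the ends of each sarcomere. Calcium released from the sarcoplasmic reticulum binds troponin on the thin filament and switches the pull on. Fast and slow fibres use different genes for the same parts, as with the myosin heavy chains and the troponins, although some forms, such as Mybpc1, occur in both kinds of fibre. The cochlea lies in the temporal bone and holds no skeletal muscle of its own, while muscles of the middle ear and the skull base attach close by. Several of these genes, the glycogen phosphorylase Pygm and the enolase Eno3 among them, are also transcribed outside muscle.

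The muscle genes followed 2 patterns. Genes of the fast contractile apparatus (Myh1, Myh2, Myh4, Tnnt3, Tnni2, Tnnc2), the skeletal actin Acta1, the calcium pump Atp2a1, the creatine kinase Ckm and myoglobin Mb were low in most libraries and several-fold higher in the same 3, each from a different group. Those libraries were day sham exposure sham-operated b, day sham exposure ADX c and night noise sham-operated b. Other members, among them Pygm, Mybpc1, Neb, Tcap and Actn3, were present in all 24 libraries at a level that changed much less. Of the 35 members tested, 4 differed between night and day when averaged over exposure and surgery, against 6.01% of all genes tested. These were Tcap and Tnnt1, lower at night, and Actn3 and Ankrd2, higher. With adrenalectomy 2 differed (Mybpc1 lower, Mybpc2 higher), against 3.2% of all genes tested. The difference of Mybpc2 held in only 2 of the 24 fits that each left out a library. With noise averaged over time and surgery 0 differed, against 4.81% of all genes tested. Whether members differed more often than other genes was not tested.

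The 250 bases before the start of 5 genes are printed here because they carry the patterns above: Acta1, Myh4 and Atp2a1 for the genes that moved together in 3 libraries, and Tnnt1 and Mybpc1 for genes that passed a test. They come from RefSeq on build GRCm38.p6 and are written 5′ to 3′ on the strand of the gene. Capitals mark matches, on either strand, to TATAAA, to CAGCTG (a motif bound by MyoD and related muscle factors), to the MEF2 site, or to the CArG box bound by serum response factor. Acta1 is at chr8:123894776-123895025 (minus strand), Myh4 at chr11:67237562-67237811 (plus strand) and Atp2a1 at chr7:126463074-126463323 (minus strand). Tnnt1 is at chr7:4515976-4516225 (minus strand) and Mybpc1 at chr10:88605153-88605402 (minus strand).
Acta1: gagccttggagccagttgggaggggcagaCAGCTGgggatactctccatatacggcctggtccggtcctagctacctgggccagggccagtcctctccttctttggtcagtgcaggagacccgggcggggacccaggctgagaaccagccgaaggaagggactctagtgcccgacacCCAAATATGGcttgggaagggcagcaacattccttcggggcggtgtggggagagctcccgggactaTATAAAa
Myh4: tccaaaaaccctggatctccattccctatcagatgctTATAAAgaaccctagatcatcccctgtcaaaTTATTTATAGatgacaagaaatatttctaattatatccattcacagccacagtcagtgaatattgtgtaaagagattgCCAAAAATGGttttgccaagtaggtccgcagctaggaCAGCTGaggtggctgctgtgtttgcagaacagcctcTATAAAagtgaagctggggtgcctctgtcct
Atp2a1: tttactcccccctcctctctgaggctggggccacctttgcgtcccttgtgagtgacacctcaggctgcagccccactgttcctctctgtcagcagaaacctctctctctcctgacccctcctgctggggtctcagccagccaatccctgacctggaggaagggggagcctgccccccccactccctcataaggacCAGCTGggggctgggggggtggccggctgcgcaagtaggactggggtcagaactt
Tnnt1: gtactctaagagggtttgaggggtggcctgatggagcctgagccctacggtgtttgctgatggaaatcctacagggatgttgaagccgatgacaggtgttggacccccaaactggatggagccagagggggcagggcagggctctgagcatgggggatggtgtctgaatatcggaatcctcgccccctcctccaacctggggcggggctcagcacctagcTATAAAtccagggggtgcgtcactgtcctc
Mybpc1: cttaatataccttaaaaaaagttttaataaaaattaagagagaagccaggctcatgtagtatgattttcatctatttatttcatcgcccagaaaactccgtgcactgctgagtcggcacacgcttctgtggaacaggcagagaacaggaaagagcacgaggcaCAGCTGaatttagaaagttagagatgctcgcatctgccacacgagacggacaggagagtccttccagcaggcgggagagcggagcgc

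In Acta1 the capitals are CAGCTG at bases 221 to 216 before the start, a CArG box at bases 73 to 64 and TATAAA at bases 7 to 2. Myh4 held CAGCTG at bases 67 to 62, a CArG box at bases 104 to 95, a MEF2 site at bases 182 to 173, and TATAAA at bases 31 to 26, with further TATAAA matches at bases 213 to 208 and, inside the MEF2 match, at bases 179 to 174. Atp2a1 and Mybpc1 held CAGCTG, at bases 55 to 50 and 87 to 82, and Tnnt1 held TATAAA at bases 30 to 25. The promoter table matched 28 of the 36 members, with 33 starts. CAGCTG stood in 17 of these 33 windows, or 51.5%, against 13.0% of the 32851 windows of the same length in the table. The MEF2 site stood in 5 of them (15.2%, against 2.92% of all windows), the CArG box in 2 (6.06% against 1.47%) and TATAAA in 7 (21.2% against 12.4%). The E-box CACGTG, which clock factors bind, stood in 1 of them (3.03% against 6.02%), the window of the Z-disc gene Actn2. A match is a description of the letters, and several starts of a gene share bases.

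The summed level of the 36 genes ran from 136 CPM in day noise ADX c to 302 CPM in day sham exposure sham-operated b, with a median of 167 CPM. Day sham exposure ADX c had 301 CPM, and night noise sham-operated b had 288 CPM, and the library after them, night sham exposure sham-operated c, had 209 CPM. In share of all counts this is 0.0134% to 0.0305%. By group the sums were 213 ± 79.8 CPM (SD, n = 3) in day sham exposure sham-operated, 219 ± 74.0 in day sham exposure ADX and 204 ± 74.3 in night noise sham-operated, the groups that hold the 3 high libraries. The other group sums were 186 ± 17.4 CPM in day noise sham-operated, 176 ± 29.9 in night sham exposure sham-operated, 159 ± 8.33 in night noise ADX, 158 ± 3.76 in night sham exposure ADX and 151 ± 15.3 in day noise ADX. Night noise ADX, night sham exposure ADX and day noise ADX held no library above 168 CPM. In bulk tissue, fewer cells of a type and less RNA per cell cannot be told apart.

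The 3 high libraries belong to 2 sham exposures and 1 noise exposure, 2 day groups and 1 night group, 2 sham-operated groups and 1 ADX group. Because these libraries were picked by the members' own sum, the counts that follow describe the members and test nothing. Exactly these 3 were the highest libraries for 15 of the 36 members: Myh1, Myh2, Myh4, Myl1, Mylpf, Tnnt3, Tnni2, Tnnc2, Acta1, Ttn, Myoz1, Ryr1, Atp2a1, Ckm and Mb. Over all 16607 genes tested, 33 genes, or 0.199%, had these 3 libraries on top. For 10 members the 6 highest libraries were these 3 with night sham exposure sham-operated c, day noise sham-operated c and day sham exposure ADX a. Of all genes tested 11 shared those 6. Among the 10 members, Cacna1s is not one of the 15 above: night sham exposure sham-operated c (0.852 CPM) stood above day sham exposure ADX c (0.849 CPM). The highest library stood more than 3 times above the gene's median in 17 members, and in 2.02% of all genes tested. The largest ratio was 32.3 (Myh1) and the smallest 1.18 (Pygm).

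**Figure D1:**
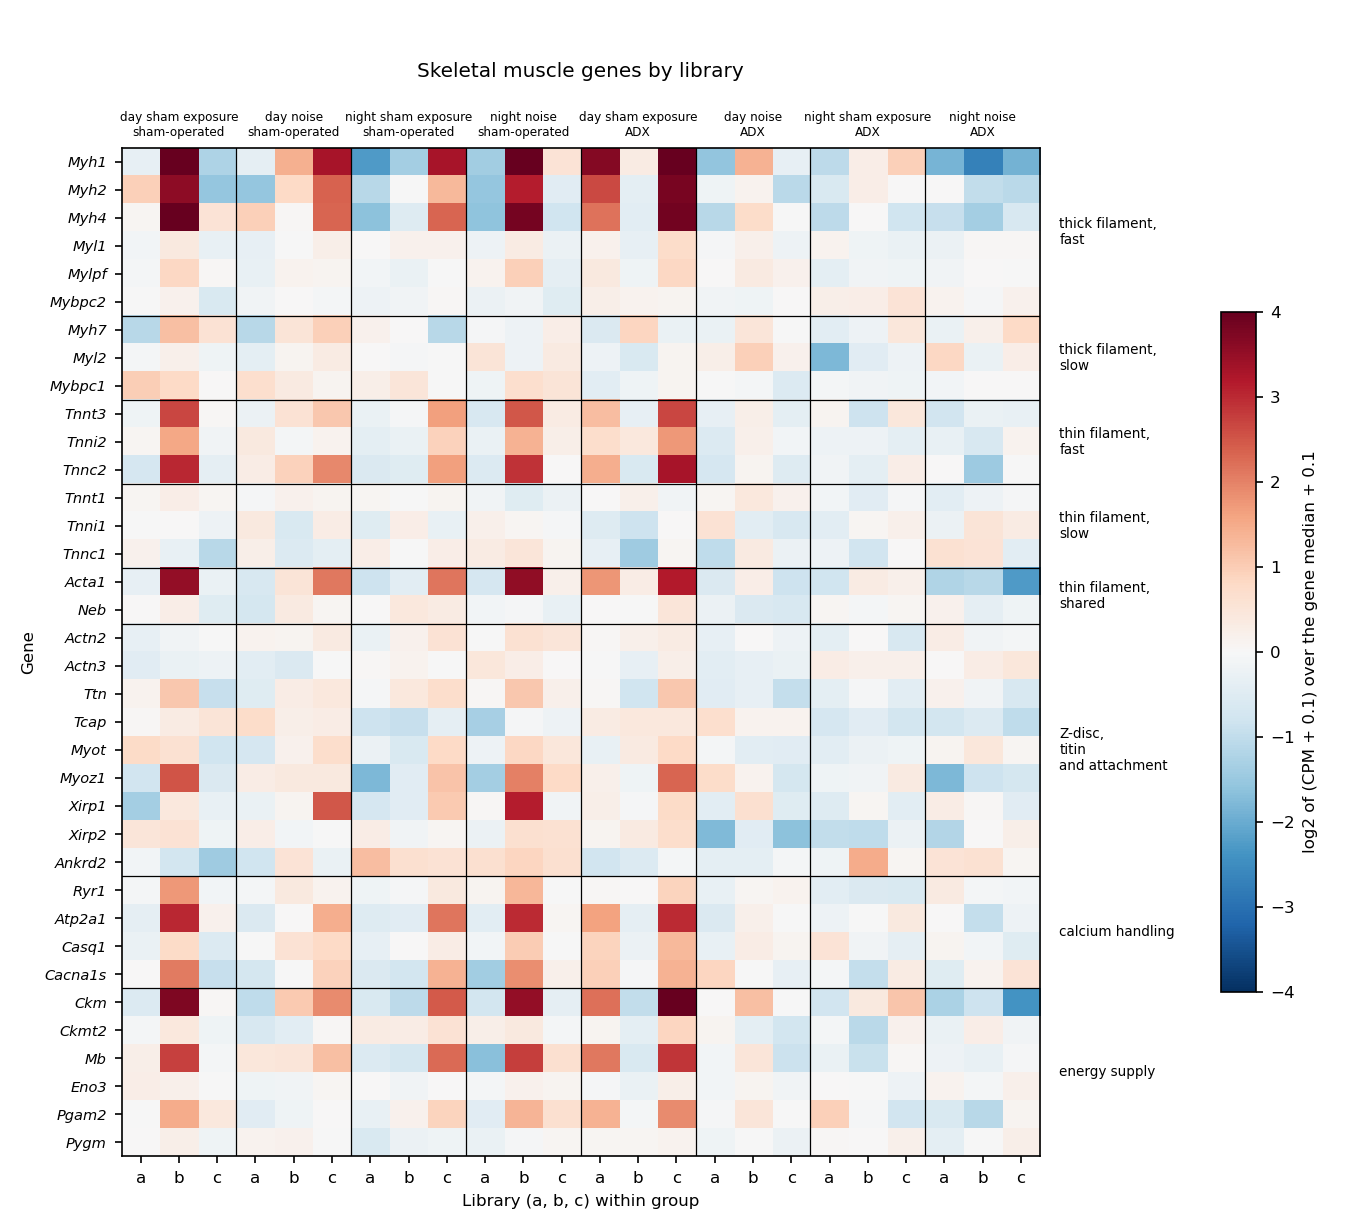
Level of each of the 36 muscle genes (rows, by role) in each of the 24 libraries (columns, by group), as log2 of CPM plus 0.1 over the gene's median plus 0.1, with red above and blue below the median. The dark red columns are day sham exposure sham-operated b, night noise sham-operated b and day sham exposure ADX c, and the rows that are dark there include Myh1, Myh2, Myh4, Tnnt3, Tnnc2, Acta1, Myoz1, Atp2a1, Ckm and Mb.

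No other tissue list examined had these 3 libraries as its 3 highest. The 30 other skeletal muscle genes summed to 248 CPM in day sham exposure sham-operated b (rank 14 of 24), 294 in day sham exposure ADX c (rank 1) and 261 in night noise sham-operated b (rank 6), with parvalbumin, Pvalb, the highest of them at a mean of 120 CPM. Parvalbumin is also made by neurons. Of the 25 of those 30 that were tested, Cmya5, Myoz3 and Cox6a2 had the same 3 libraries on top, as did Actc1 among the 5 heart muscle genes tested. The tendon genes had ranks 5, 24 and 4 in these libraries, the bone genes 24, 21 and 11, the smooth muscle genes 22, 21 and 6, and the fat cell genes 8, 14 and 2. In night noise sham-operated b the cerebellar genes reached 247 CPM (rank 2), and in day sham exposure sham-operated b they reached 266 CPM (rank 1), against a median of 143 CPM, and 144 CPM (rank 10) in day sham exposure ADX c. The part of such tissue in the muscle signal was not tested. Neither the files nor the labels record what was dissected with each cochlea.

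Among the fast thick-filament genes, the fast myosin heavy chains rose most in the 3 libraries. Myh4, the heavy chain of the fastest fibres, averaged 9.66 ± 0.905 CPM (SD, n = 3) in them and 0.801 ± 0.969 in the other 21. Myh1 averaged 14.5 ± 2.91 CPM against 1.42 ± 2.38, and Myh2 3.3 ± 0.755 against 0.304 ± 0.457. The heavy chain genes lie side by side on chromosome 11 and are alike: 74.6% of the 50-base windows of Myh1, 77.1% of those of Myh2 and 81.1% of those of Myh4 occur in no other gene, so the split of reads between them is uncertain. The light chain Myl1 and the binding protein Mybpc2 had the highest mean CPM of the fast thick filament.

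By day, Myl1 had 13.9, 19.5 and 12.1 CPM after sham exposure and 11.7, 14.7 and 17.3 CPM after noise in sham-operated libraries a, b and c, and 16.6, 11.9 and 24.8 CPM and 14.5, 17 and 13 CPM in the ADX libraries in the same order. At night, Myl1 had 15, 16.7 and 16.8 CPM after sham exposure and 13, 18.6 and 12.5 CPM after noise in sham-operated libraries a, b and c, and 16.5, 13.3 and 12.3 CPM and 12.6, 15.5 and 15.3 CPM in the ADX libraries in the same order. The lowest library of Myl1 had 11.7 CPM and the highest 24.8 CPM, so that the fast light chain was present throughout, and the groups overlapped. Of its 50-base windows 88.3% occur in no other gene, and the rest are shared with the pseudogene Mylf-ps. By day, Mybpc2 had 7.04, 8.06 and 4.65 CPM after sham exposure and 6.41, 7.12 and 6.63 CPM after noise in sham-operated libraries a, b and c, and 8.43, 7.89 and 7.6 CPM and 6.41, 6.34 and 7.2 CPM in the ADX libraries in the same order. At night, Mybpc2 had 6.16, 6.41 and 7.26 CPM after sham exposure and 6.02, 6.45 and 5.02 CPM after noise in sham-operated libraries a, b and c, and 8.33, 8.59 and 10.3 CPM and 7.85, 6.88 and 7.91 CPM in the ADX libraries in the same order. Mybpc2, the fast form of myosin-binding protein C, did not follow the 3 libraries: their mean was 7.37 CPM against 7.09 CPM in the rest, and its highest value lay in night sham exposure ADX c.

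The slow thick-filament genes did not have the 3 libraries as their 3 highest. Mybpc1, the slow form of myosin-binding protein C, averaged 31.9 ± 7.54 CPM (SD, n = 3) in them and 23.4 ± 6.57 in the other 21, a ratio of 1.36. For Myh7 that ratio was 1.39, at levels of at most 0.396 CPM. Myl2, the light chain of slow fibres and of the heart, averaged 0.586 ± 0.0947 CPM (SD, n = 3) in them and 0.592 ± 0.239 in the other 21, and Myh7 had no count in 3 libraries. By day, Myl2 had 0.525, 0.661 and 0.487 CPM after sham exposure and 0.406, 0.619 and 0.722 CPM after noise in sham-operated libraries a, b and c, and 0.471, 0.334 and 0.617 CPM and 0.677, 1.17 and 0.644 CPM in the ADX libraries in the same order. At night, Myl2 had 0.563, 0.541 and 0.556 CPM after sham exposure and 0.839, 0.479 and 0.74 CPM after noise in sham-operated libraries a, b and c, and 0.0912, 0.384 and 0.467 CPM and 1.06, 0.443 and 0.695 CPM in the ADX libraries in the same order. The highest library of Myl2 was day noise ADX b, and each group overlapped with some others. All 3 libraries of day noise ADX lay above all 3 of day sham exposure ADX. All 3 of night sham exposure ADX lay below all 3 of night sham exposure sham-operated. Of the 12 noise libraries, 7 lay above every sham-exposed library, but no comparison of noise with sham exposure called Myl2 by edgeR. Mybpc1 was far more abundant. By day, Mybpc1 had 42.6, 37.5 and 21.6 CPM after sham exposure and 34.6, 27.7 and 23.3 CPM after noise in sham-operated libraries a, b and c, and 16.1, 19.3 and 23.3 CPM and 21.4, 20.6 and 14.6 CPM in the ADX libraries in the same order. At night, Mybpc1 had 25.6, 30.4 and 21.3 CPM after sham exposure and 19.1, 34.7 and 31 CPM after noise in sham-operated libraries a, b and c, and 20.6, 19.6 and 19.1 CPM and 20.2, 21.8 and 21.6 CPM in the ADX libraries in the same order. Mybpc1 was highest in day sham exposure sham-operated a at 42.6 CPM, followed by library b of that group (37.5 CPM) and night noise sham-operated b (34.7 CPM), and, in ADX libraries, stayed between 14.6 and 23.3 CPM.

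The fast thin-filament genes moved with the fast myosins, and the slow ones did not. Tnnt3, the fast troponin T, averaged 7.03 ± 0.541 CPM (SD, n = 3) in the 3 libraries and 1.26 ± 0.758 in the other 21. By day, Tnnt3 had 0.946, 7.36 and 1.11 CPM after sham exposure and 0.893, 1.65 and 2.39 CPM after noise in sham-operated libraries a, b and c, and 2.69, 0.835 and 7.33 CPM and 0.837, 1.28 and 0.796 CPM in the ADX libraries in the same order. At night, Tnnt3 had 0.88, 1.04 and 3.56 CPM after sham exposure and 0.657, 6.41 and 1.36 CPM after noise in sham-operated libraries a, b and c, and 1.16, 0.555 and 1.52 CPM and 0.589, 0.885 and 0.849 CPM in the ADX libraries in the same order. In Tnnt3 the high libraries stood at 6.41 to 7.36 CPM and no other library passed 3.56 CPM. By day, Tnni2 had 1.1, 3.26 and 0.93 CPM after sham exposure and 1.38, 0.98 and 1.17 CPM after noise in sham-operated libraries a, b and c, and 1.75, 1.42 and 3.67 CPM and 0.677, 1.22 and 0.948 CPM in the ADX libraries in the same order. At night, Tnni2 had 0.774, 0.85 and 2.07 CPM after sham exposure and 0.839, 2.88 and 1.25 CPM after noise in sham-operated libraries a, b and c, and 0.882, 0.897 and 0.779 CPM and 0.825, 0.639 and 1.16 CPM in the ADX libraries in the same order. Tnni2, the fast inhibitory troponin, had the same 3 on top, at 2.88 to 3.67 CPM, with all others at or below 2.07 CPM. Tnnc2, the fast calcium-binding troponin, averaged 3.36 ± 0.483 CPM against 0.399 ± 0.372. Of its exon bases, 74% lie in exons of Ube2c on the other strand.

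By day, Tnnt1 had 5.15, 5.86 and 5.18 CPM after sham exposure and 4.67, 5.47 and 5.32 CPM after noise in sham-operated libraries a, b and c, and 4.96, 5.59 and 4.4 CPM and 5.1, 6.63 and 5.5 CPM in the ADX libraries in the same order. At night, Tnnt1 had 5.1, 4.79 and 5.26 CPM after sham exposure and 4.38, 3.44 and 4.09 CPM after noise in sham-operated libraries a, b and c, and 4.47, 3.55 and 4.71 CPM and 3.65, 4.18 and 4.71 CPM in the ADX libraries in the same order. Tnnt1, the slow troponin T, had no peak in the 3 libraries, at a mean of 4.57 CPM against 4.88 CPM, and its lowest value of 3.44 CPM came from night noise sham-operated b. By day, Tnni1 had 0.525, 0.529 and 0.443 CPM after sham exposure and 0.73, 0.309 and 0.677 CPM after noise in sham-operated libraries a, b and c, and 0.342, 0.25 and 0.54 CPM and 0.837, 0.37 and 0.303 CPM in the ADX libraries in the same order. At night, Tnni1 had 0.352, 0.657 and 0.407 CPM after sham exposure and 0.62, 0.567 and 0.506 CPM after noise in sham-operated libraries a, b and c, and 0.365, 0.555 and 0.623 CPM and 0.432, 0.787 and 0.695 CPM in the ADX libraries in the same order. Tnni1, the slow inhibitory troponin, ran from 0.25 to 0.837 CPM, highest in day noise ADX a, and its groups overlapped. Tnnc1, the calcium-binding troponin of slow fibres and the heart, ran from 0.125 to 0.825 CPM.

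Of the thin-filament genes that fast and slow fibres share, Acta1 moved with the fast genes and nebulin (Neb), the giant protein along the thin filament, hardly did. By day, Acta1 had 0.578, 9.78 and 0.62 CPM after sham exposure and 0.446, 1.13 and 3.61 CPM after noise in sham-operated libraries a, b and c, and 2.82, 0.96 and 7.64 CPM and 0.478, 0.938 and 0.379 CPM in the ADX libraries in the same order. At night, Acta1 had 0.387, 0.541 and 3.67 CPM after sham exposure and 0.438, 9.85 and 0.896 CPM after noise in sham-operated libraries a, b and c, and 0.395, 0.983 and 0.896 CPM and 0.275, 0.295 and 0.0772 CPM in the ADX libraries in the same order. Acta1 stood at 7.64 to 9.85 CPM in the 3 libraries, at 2.82 to 3.67 CPM in the next 3 and at 0.0772 to 1.13 CPM in the remaining 18. By day, Neb had 12, 14.2 and 8.29 CPM after sham exposure and 7.22, 15 and 12.3 CPM after noise in sham-operated libraries a, b and c, and 12, 11.6 and 16.3 CPM and 10, 7.9 and 7.47 CPM in the ADX libraries in the same order. At night, Neb had 11.9, 15.7 and 14.9 CPM after sham exposure and 10.8, 11.4 and 9.5 CPM after noise in sham-operated libraries a, b and c, and 12.4, 11.2 and 12.5 CPM and 13.2, 9.2 and 10.4 CPM in the ADX libraries in the same order. Neb averaged 14 ± 2.48 CPM (SD, n = 3) in the 3 libraries and 11.2 ± 2.41 in the other 21, and its lowest library still had 7.22 CPM.

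**Figure D2:**
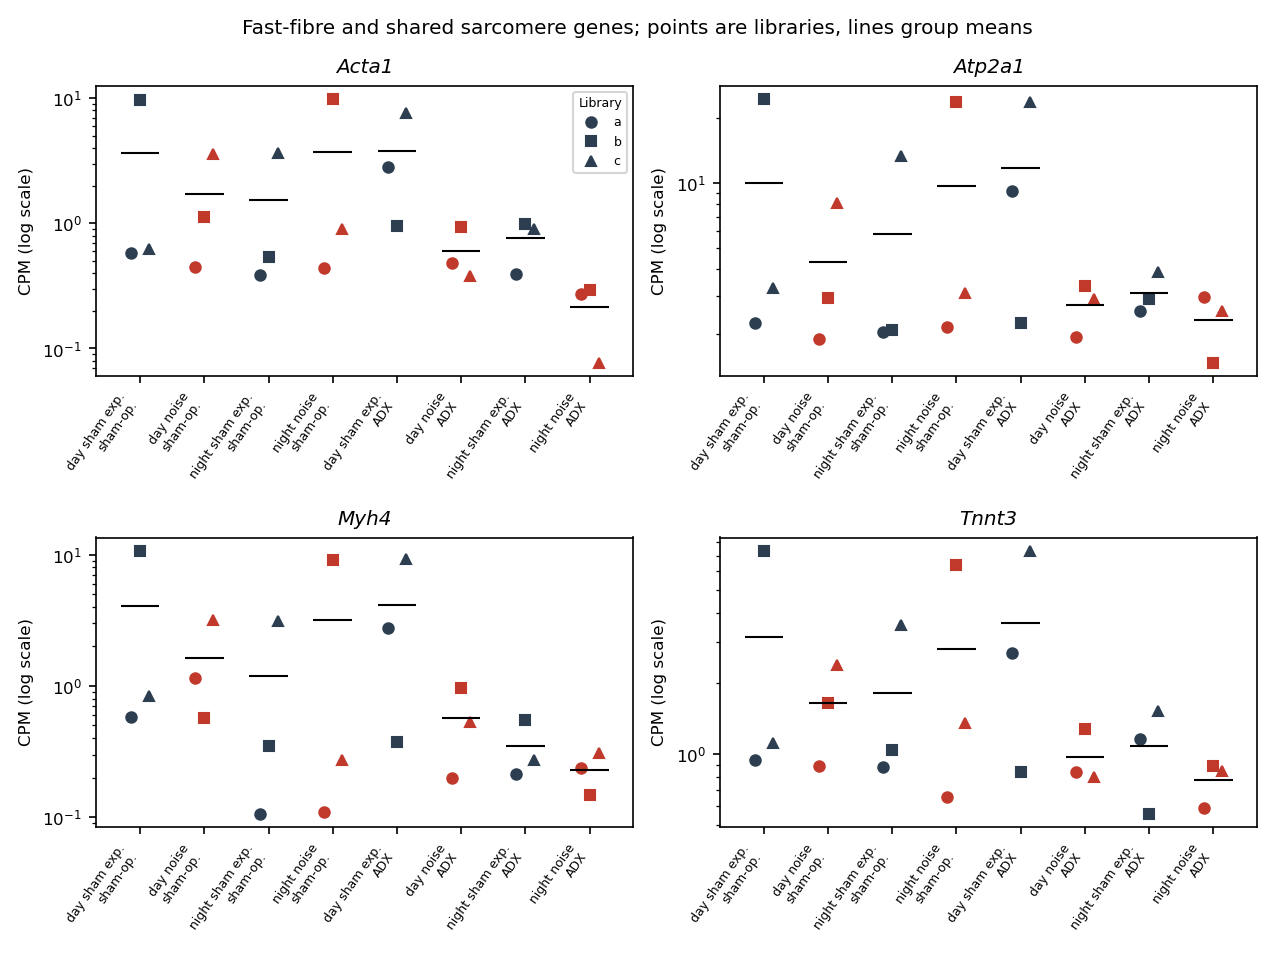
CPM on a log scale for the actin Acta1, the calcium pump Atp2a1, the myosin Myh4 and the troponin Tnnt3 in the 8 groups; circles, squares and triangles are libraries a, b and c, red after noise and dark blue after sham exposure, and lines are group means. In each panel 3 points stand on top, and for Atp2a1 they lie at 23.7 to 24.5 CPM with the next library at 13.3 CPM.

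The 9 genes of the Z-disc, titin and their attachments were mixed. Titin (Ttn), the spring that spans the sarcomere from Z-disc to midline, and Myoz1, a Z-disc protein of fast fibres, had the 3 high libraries on top. By day, Ttn had 6.99, 13.5 and 3.32 CPM after sham exposure and 4.5, 7.84 and 8.44 CPM after noise in sham-operated libraries a, b and c, and 6.59, 3.59 and 13.4 CPM and 4.58, 4.98 and 3.22 CPM in the ADX libraries in the same order. At night, Ttn had 6.09, 8.5 and 10.4 CPM after sham exposure and 6.5, 13.6 and 7.24 CPM after noise in sham-operated libraries a, b and c, and 4.8, 6.15 and 4.71 CPM and 7.11, 5.75 and 3.98 CPM in the ADX libraries in the same order. For Ttn those libraries had 13.4 to 13.6 CPM, and the next library had 10.4 CPM. Titin spans 116825 exon bases in the annotation, and per kilobase its median was 0.0541 CPM, against 7.35 for the short Z-disc gene Tcap. The actinins, which cross-link actin in the Z-disc, showed no such peak: Actn2 ran from 3.55 to 8.67 CPM, and Actn3, the actinin of fast fibres, from 5.16 to 10.7 CPM. Myot, another Z-disc protein, ran from 0.399 to 1.44 CPM.

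Xirp1, which binds actin at attachment sites and is known to rise in stressed muscle, took a pattern of its own; it was singled out after its values were seen. Its highest libraries were night noise sham-operated b at 5.8 CPM and day noise sham-operated c at 3.65 CPM, both after noise. In the sham-exposed high libraries it had 0.793 CPM (day sham exposure sham-operated b) and 1.04 CPM (day sham exposure ADX c). As a ratio of counts, Xirp1 over Acta1 was 0.588 in night noise sham-operated b (133 and 226 counts), 0.0811 in day sham exposure sham-operated b (18 against 222 counts), and 0.136 in day sham exposure ADX c (27 and 198 counts). Day noise sham-operated c had a ratio of 1.01 (81 and 80 counts). Over all 24 libraries the ratio ran from 0.0811 to 5, and other sham-exposed libraries reached 0.923, so that the ratio did not separate noise from sham exposure. The other libraries of the noise sham-operated groups had at most 0.619 CPM, within the range of the sham-exposed libraries. For noise against sham exposure at night in sham-operated mice its log2 fold change was 1.78 (SE 0.839, adjusted p = 0.581, edgeR quasi-likelihood test with Benjamini-Hochberg adjustment).

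Calcium handling genes moved with the fast fibres. Atp2a1, the pump that returns calcium to the reticulum of fast fibres, averaged 24 ± 0.449 CPM (SD, n = 3) in the 3 libraries and 3.68 ± 2.91 in the other 21. By day, Atp2a1 had 2.26, 24.5 and 3.28 CPM after sham exposure and 1.91, 2.94 and 8.12 CPM after noise in sham-operated libraries a, b and c, and 9.2, 2.25 and 23.7 CPM and 1.95, 3.36 and 2.92 CPM in the ADX libraries in the same order. At night, Atp2a1 had 2.04, 2.09 and 13.3 CPM after sham exposure and 2.15, 23.8 and 3.12 CPM after noise in sham-operated libraries a, b and c, and 2.55, 2.9 and 3.9 CPM and 2.98, 1.48 and 2.55 CPM in the ADX libraries in the same order. Atp2a1 exceeded 13.3 CPM in no other library, and 21.9% of its exon bases lie in exons of Rabep2 on the other strand. By day, Ryr1 had 2.42, 8.63 and 2.35 CPM after sham exposure and 2.39, 3.35 and 2.8 CPM after noise in sham-operated libraries a, b and c, and 2.61, 2.55 and 4.82 CPM and 2.03, 2.67 and 2.84 CPM in the ADX libraries in the same order. At night, Ryr1 had 2.25, 2.43 and 3.33 CPM after sham exposure and 2.74, 6.58 and 2.53 CPM after noise in sham-operated libraries a, b and c, and 1.88, 1.67 and 1.64 CPM and 3.26, 2.41 and 2.35 CPM in the ADX libraries in the same order. Ryr1, the channel that releases calcium, stood at 4.82 to 8.63 CPM in the same 3 libraries and at most at 3.35 CPM elsewhere. The calcium store protein Casq1 averaged 3.27 ± 0.606 CPM against 1.64 ± 0.53, and the voltage sensor Cacna1s 1.16 ± 0.285 against 0.294 ± 0.207.

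The energy genes split. Ckm, which buffers ATP in the sarcomere, averaged 7.03 ± 1.19 CPM (SD, n = 3) in the 3 libraries and 0.668 ± 0.767 in the other 21, and Mb, which stores oxygen, 4.46 ± 0.199 against 0.788 ± 0.771. Pgam2, a glycolytic mutase of muscle, averaged 1.83 ± 0.398 CPM against 0.617 ± 0.329, and the mitochondrial creatine kinase Ckmt2 3.86 ± 0.769 against 2.44 ± 0.66. By day, Pygm had 33.7, 39 and 29.2 CPM after sham exposure and 36.8, 37.8 and 33 CPM after noise in sham-operated libraries a, b and c, and 35.2, 35.1 and 37 CPM and 29.6, 32.9 and 28 CPM in the ADX libraries in the same order. At night, Pygm had 21.9, 28.2 and 29.4 CPM after sham exposure and 27.6, 32.3 and 35.4 CPM after noise in sham-operated libraries a, b and c, and 34.4, 33.4 and 38.5 CPM and 25.5, 32.8 and 39.2 CPM in the ADX libraries in the same order. Pygm, which frees glucose from glycogen, had its highest value in night noise ADX c and its lowest in night sham exposure sham-operated a. By day, Eno3 had 19.8, 18.8 and 16.2 CPM after sham exposure and 14.5, 14.9 and 17.3 CPM after noise in sham-operated libraries a, b and c, and 15.8, 13.4 and 19.1 CPM and 15.2, 17.5 and 14.8 CPM in the ADX libraries in the same order. At night, Eno3 had 16.4, 14.8 and 16.4 CPM after sham exposure and 15.4, 18.5 and 17.5 CPM after noise in sham-operated libraries a, b and c, and 16.4, 16.2 and 14.3 CPM and 18, 15.4 and 18.9 CPM in the ADX libraries in the same order. Eno3, the muscle enolase, ran from 13.4 to 19.8 CPM with all groups overlapping. Per kilobase of exon, the highest medians of the 36 genes were those of Pygm (10.3 CPM), Eno3 (9.36), Tcap (7.35) and Myl1 (7.15), whereas Acta1 had 0.494 CPM and Myh4 0.0903.

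Spread within groups was wide for many of these genes. The SD of log2 CPM within groups had a median of 0.54 over the members and 0.133 over all genes tested. Of the 500 genes with the largest such SD, 13 were members, a set that holds 3.01% of all genes tested. This SD also depends on the level of a gene, and the members were not compared with other genes of like level. Pygm, at a median of 33.2 CPM, had an SD of 0.182, and Myh2, at 0.194 CPM, had 1.82, while Tnni1, at 0.527 CPM, had 0.43. The share of a member's variance that lay between groups had a median of 33.1% (all genes tested 41.3%), from 9.39% for Cacna1s to 77.7% for Tcap. With only 3 libraries in each of 8 groups, group means differ without any effect of group. A sizeable share therefore arises from the spread of libraries alone, and the share does not measure an effect of group. Shares above 60% were those of Tcap, Actn3 (71.7%), Xirp2 (66.3%), Tnnt1 (65.2%), Ankrd2 (63.3%) and Mybpc2 (60.4%), whose SD within groups ran from 0.16 for Tnnt1 to 0.54 for Ankrd2. Eno3 had an SD of 0.152 with a share of 29.1%. For Acta1 the share was 38.6% with an SD of 1.5, and for Atp2a1 it was 22% with an SD of 1.3.

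**Figure D3:**
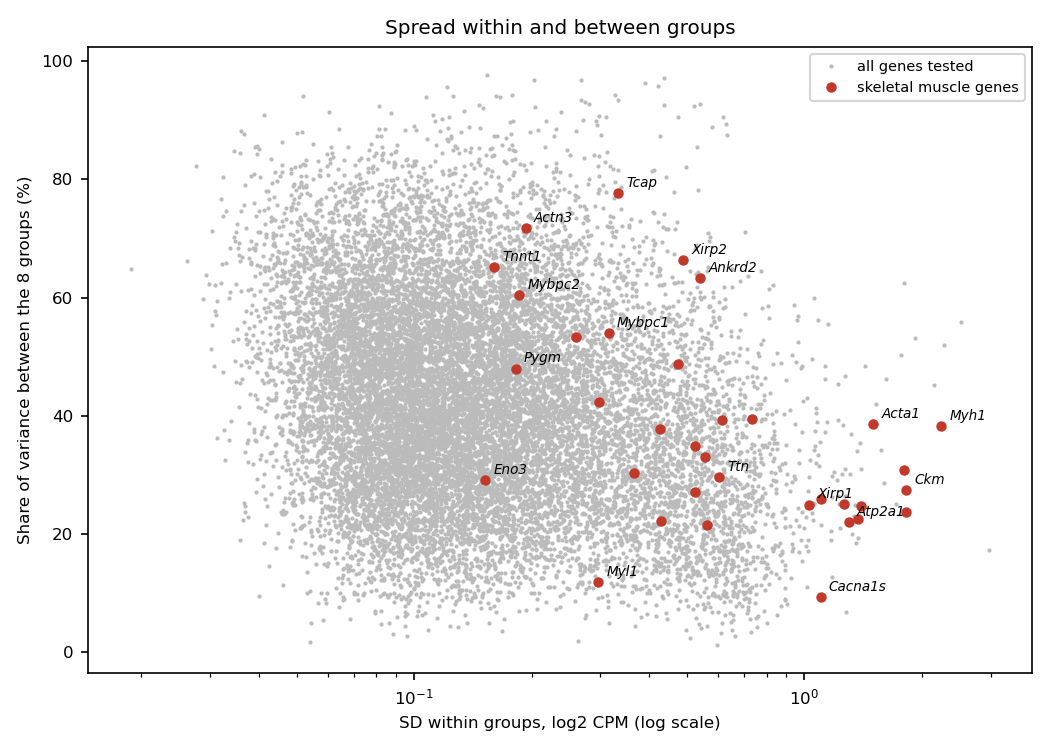
Share of each gene's variance in log2 CPM that lies between the 8 groups (vertical axis, percent) against its SD within groups (horizontal axis, log scale), with all genes tested in grey and the muscle genes in red. Tcap (77.7%) and Actn3 (71.7%) lie at the top, while Acta1, Ckm and Atp2a1 lie far to the right with shares under 40%.

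Differences among groups were tested with edgeR's quasi-likelihood test, adjusted by Benjamini-Hochberg over all 16607 genes at a threshold of 0.05. A test of any difference among the 8 groups called 3 of the 35 members (8.7% of all genes tested), namely Tcap (adjusted p = 0.00191), Actn3 (0.0158) and Xirp2 (0.047), by edgeR. DESeq2 called 8 members and limma voom 2. The call of Xirp2 held in 6 of the 24 fits that left out 1 library: without day noise ADX b, night noise ADX a, night noise ADX c, night noise sham-operated a, day sham exposure sham-operated c or night sham exposure ADX c. Without day noise ADX c it had an adjusted p of 0.128 by edgeR, and without the 3 high libraries 0.177.

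Night against day, averaged over exposure and surgery, called 4 of 35 members, 2 higher and 2 lower (6.01% of all genes tested). DESeq2 called 3 members and limma voom 4. The median log2 fold change of the members was -0.253, and that of all genes tested -0.0017. Of the 3 libraries high in muscle genes, 2 were day libraries, and their part in the members' median was not tested. Tcap, or telethonin, caps titin in the Z-disc and is known in muscle as a gene that follows the circadian clock. By day, Tcap had 7.15, 8.85 and 10.1 CPM after sham exposure and 11.6, 8.2 and 8.57 CPM after noise in sham-operated libraries a, b and c, and 8.81, 9.31 and 9.42 CPM and 11.1, 7.65 and 7.66 CPM in the ADX libraries in the same order. At night, Tcap had 3.91, 3.63 and 5.44 CPM after sham exposure and 2.74, 6.8 and 6.08 CPM after noise in sham-operated libraries a, b and c, and 4.38, 5.08 and 4.17 CPM and 4.12, 4.72 and 3.43 CPM in the ADX libraries in the same order. The 12 night libraries of Tcap ran from 2.74 to 6.8 CPM and the 12 day libraries from 7.15 to 11.6 CPM, with no overlap. Its log2 fold change was -1 (SE 0.123), a 2-fold fall at night, with an adjusted p of 4.7e-05 by edgeR. Leaving out any 1 of the 24 libraries kept the call, and over all settings run the log2 fold change of Tcap was -1.06 to -0.926.

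The fall of Tcap had a similar size in each of the 4 single comparisons of night with day. The log2 fold change was -1.01 (SE 0.248) after sham exposure and -0.875 (SE 0.245) after noise in sham-operated mice, and -1.02 (SE 0.245) and -1.11 (SE 0.249) in ADX mice. Only the last passed the threshold (adjusted p = 0.0451 by edgeR, against 0.0904, 0.0861 and 0.29 in the order given), and whether the 4 differ was not tested. That call held in 12 of the 24 fits without 1 library. It was lost without day noise ADX b or c, day noise sham-operated c, night noise ADX b or c, any library of day sham exposure ADX or night sham exposure ADX, or day sham exposure sham-operated b, at adjusted p of 0.0511 to 0.175, and in a fit of the 6 libraries compared it had 0.23. No exon base of Tcap lies in another gene, and the promoter table has no entry for it.

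Actn3 went the other way. By day, Actn3 had 5.73, 6.48 and 6.73 CPM after sham exposure and 5.76, 5.16 and 7.72 CPM after noise in sham-operated libraries a, b and c, and 7.74, 6.14 and 9.26 CPM and 5.82, 6.26 and 6.52 CPM in the ADX libraries in the same order. At night, Actn3 had 8.02, 8.69 and 7.7 CPM after sham exposure and 10.7, 9.41 and 7.98 CPM after noise in sham-operated libraries a, b and c, and 9.55, 8.93 and 9.08 CPM and 7.89, 9.69 and 10.7 CPM in the ADX libraries in the same order. The night libraries of Actn3 ran from 7.7 to 10.7 CPM and the day libraries from 5.16 to 9.26 CPM, so that they overlapped, and 5 night libraries lay above every day library. Its log2 fold change at night was 0.452 (SE 0.078, adjusted p = 0.0012 by edgeR), a 1.37-fold rise, and it held in all 24 fits without 1 library. The highest day library was day sham exposure ADX c, a library high in muscle genes.

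Ankrd2, an ankyrin-repeat protein of the titin spring that responds to stretch, was low throughout. By day, Ankrd2 had 0.263, 0.132 and 0.0443 CPM after sham exposure and 0.122, 0.464 and 0.226 CPM after noise in sham-operated libraries a, b and c, and 0.128, 0.167 and 0.27 CPM and 0.199, 0.199 and 0.265 CPM in the ADX libraries in the same order. At night, Ankrd2 had 0.809, 0.502 and 0.481 CPM after sham exposure and 0.511, 0.61 and 0.506 CPM after noise in sham-operated libraries a, b and c, and 0.243, 0.983 and 0.312 CPM and 0.471, 0.492 and 0.309 CPM in the ADX libraries in the same order. Night libraries of Ankrd2 ran from 0.243 to 0.983 CPM and day libraries from 0.0443 to 0.464 CPM, with 9 of the 12 night libraries above all day libraries. The log2 fold change was 1.34 (SE 0.279, adjusted p = 0.00558 by edgeR), or 2.53-fold higher at night, and the call held without any 1 of the 24 libraries. Counts were small, from 1 upward, which limits the precision of each value.

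Tnnt1, whose values stand above, averaged 4.36 ± 0.596 CPM (SD, n = 12) at night and 5.32 ± 0.574 by day, with 6 night libraries below all day libraries. Its log2 fold change was -0.289 (SE 0.073, adjusted p = 0.0204 by edgeR), a 1.22-fold fall. Without 3 libraries left out for their pituitary or cerebellar transcripts (night noise sham-operated b, night noise ADX a and day sham exposure sham-operated b; other libraries hold some too), the log2 fold change was -0.228 and the adjusted p 0.109. Without the 3 libraries high in muscle genes they were -0.273 and 0.0618. The other slow troponins did not pass.

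**Figure D4:**
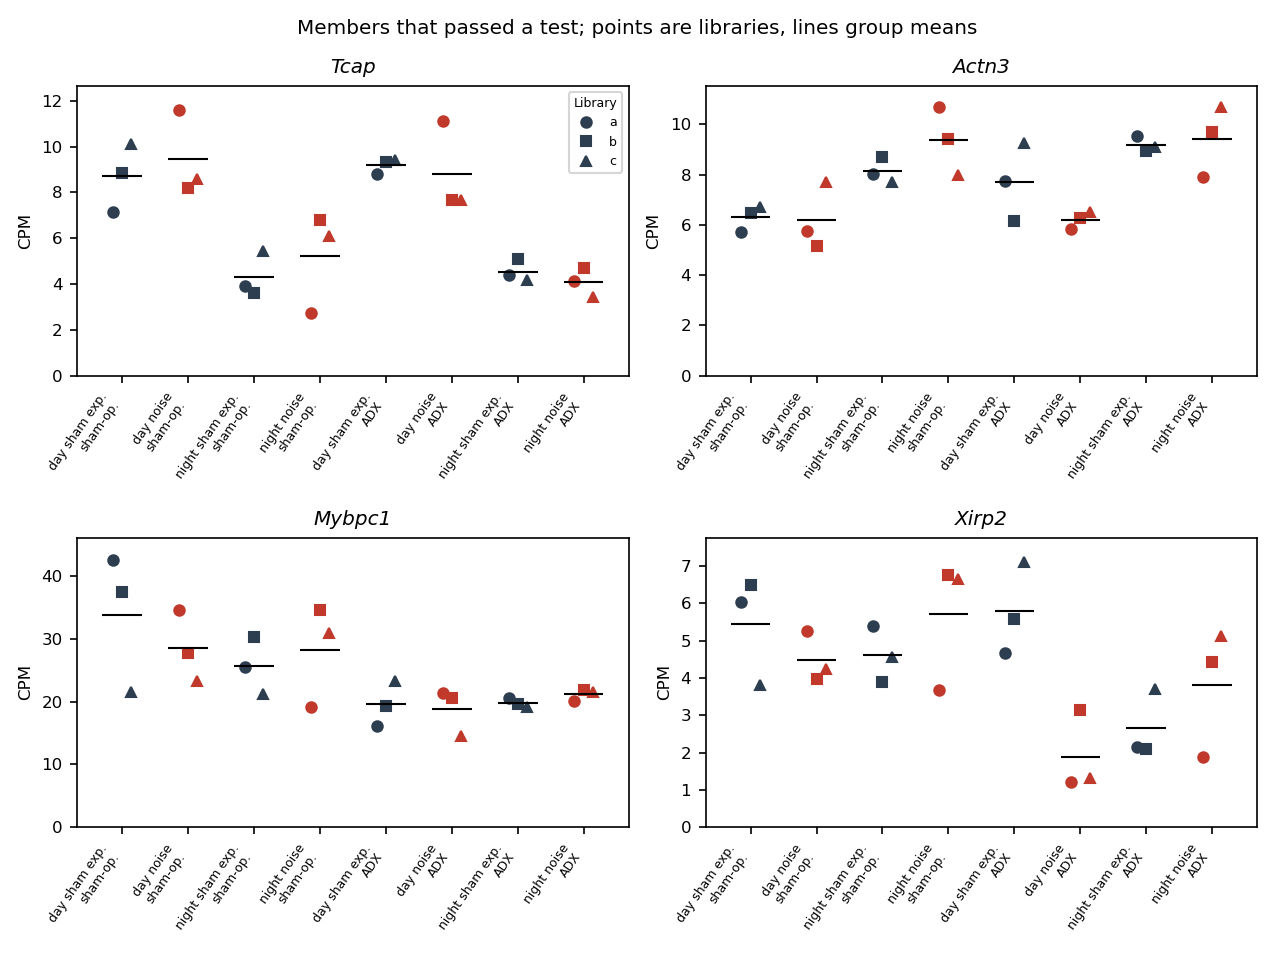
CPM of the Z-disc genes Tcap, Actn3 and Xirp2 and of the slow binding protein Mybpc1 in the 8 groups; circles, squares and triangles are libraries a, b and c, red after noise and dark blue after sham exposure, and lines are group means. Every night library of Tcap lies at or below 6.8 CPM and every day library at or above 7.15 CPM, and no ADX library of Mybpc1 passes 23.3 CPM.

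Adrenalectomy against sham operation, averaged over exposure and time, called 2 of 35 members, 1 higher and 1 lower (3.2% of all genes tested). The median log2 fold change was -0.301 over the members and -0.000144 over all genes tested. Of the 3 libraries high in muscle genes, 2 were sham-operated, and their part in the members' median was not tested. DESeq2 and limma voom each called 3 members. Mybpc1 averaged 19.9 ± 2.44 CPM (SD, n = 12) in ADX libraries and 29.1 ± 7.29 CPM in sham-operated ones, and 8 sham-operated libraries lay above every ADX library. Its log2 fold change was -0.544 (SE 0.116, adjusted p = 0.0143 by edgeR), a 1.46-fold fall that held in all 24 fits without 1 library. Mybpc2 averaged 7.81 ± 1.09 CPM in ADX libraries and 6.44 ± 0.935 CPM in sham-operated ones, with 4 ADX libraries above all sham-operated ones. Its log2 fold change was 0.274 (SE 0.0753, adjusted p = 0.0486 by edgeR). That call held in only 2 of the 24 fits without 1 library (without day noise ADX a or day sham exposure sham-operated b), with adjusted p of 0.0502 to 0.1 in the others. Other members had wider errors: the log2 fold change of Acta1 was -1.64 (SE 0.66, adjusted p = 0.201 by edgeR).

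In the single comparisons of ADX with sham operation 0 members were called. The share of all genes called was 0.0422% after sham exposure by day, 1.58% after sham exposure at night, 0% after noise by day and 0% after noise at night. At an unadjusted p under 0.05 edgeR had 1, 4, 2 and 7 members in that order. The share of all genes at that cut was not computed, so these counts cannot be read as an excess. DESeq2 called 1, 0, 0 and 0 members, and limma voom called 0, 3, 0 and 0. In the order above the members' median log2 fold change was 0.2, -0.533, -0.3 and -0.55. After sham exposure by day each group held a library high in muscle genes. After noise at night the sham-operated group held night noise sham-operated b. The comparisons with medians of -0.533 and -0.3 held none of the high libraries. The part of these libraries in the medians was not tested. For Acta1 after noise at night, the 3 sham-operated libraries (0.438, 9.85 and 0.896 CPM) all stood above the 3 ADX libraries (0.275, 0.295 and 0.0772 CPM). The log2 fold change of Acta1 there was -4.09 (SE 1.51, adjusted p = 0.478 by edgeR).

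Noise against sham exposure, averaged over time and surgery, called 0 of 35 members (4.81% of all genes tested), with 4 members at an unadjusted p under 0.05 by edgeR and 0 called by DESeq2 or limma voom. The median log2 fold change of the members was -0.169, and that of all genes tested -0.000376. Of the 3 libraries high in muscle genes, 2 were sham-exposed, and their part in the members' median was not tested. In single comparisons edgeR called 0 members by day in sham-operated mice (0.247% of all genes), 0 at night in sham-operated mice (0.717%) and 0 at night in ADX mice (0.5%). Unadjusted p fell under 0.05 for 0, 2 and 1 members there, and DESeq2 and limma voom called 0 in each. By day in ADX mice 1 of 35 members was called (4.02% of all genes), Xirp2, with 10 members at an unadjusted p under 0.05. For none of these unadjusted counts was the share of all genes computed, so they cannot be read as an excess. The members' median log2 fold change by day in ADX mice was -0.655, and the sham-exposed group held day sham exposure ADX c. The part of that library in the median was not tested.

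Xirp2 binds actin near the Z-disc and at cell attachments, and it is also known from the hair bundles of the inner ear. By day, Xirp2 had 6.04, 6.48 and 3.81 CPM after sham exposure and 5.27, 3.97 and 4.24 CPM after noise in sham-operated libraries a, b and c, and 4.66, 5.59 and 7.1 CPM and 1.2, 3.13 and 1.33 CPM in the ADX libraries in the same order. At night, Xirp2 had 5.38, 3.9 and 4.56 CPM after sham exposure and 3.69, 6.76 and 6.66 CPM after noise in sham-operated libraries a, b and c, and 2.16, 2.09 and 3.7 CPM and 1.88, 4.43 and 5.13 CPM in the ADX libraries in the same order. All 3 libraries of day noise ADX lay below all 3 of day sham exposure ADX. The log2 fold change was -1.58 (SE 0.371, adjusted p = 0.0217 by edgeR), a 3-fold fall. The call was lost without day noise ADX c (adjusted p = 0.124), without day sham exposure ADX b (0.0506) or c (0.0907), and without the 3 libraries high in muscle genes (0.119). In the same comparison Loxhd1 was the only gene called among the 9 hair cell genes tested (4.02% of all genes tested). It fell by 0.804 on the log2 scale (SE 0.186, adjusted p = 0.0202 by edgeR). The 9 hair cell genes summed to 173 to 204 CPM in day noise ADX and 195 to 255 CPM in day sham exposure ADX. The part of hair cell RNA in the change of Xirp2 was not tested.

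In sham-operated mice by day Xirp2 did not pass. The difference of the day noise change between ADX and sham-operated mice, added after the data were seen, was -1.31 for Xirp2 (log2, SE 0.514, adjusted p = 0.218 by edgeR). It called 0 of 35 members (0% of all genes tested), with 2 at an unadjusted p under 0.05 and 0 called by DESeq2 or limma voom, so that a different response in the ADX mice was not shown.

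Single comparisons of night with day called few members. EdgeR called 0 after sham exposure in sham-operated mice (0.265% of all genes), 0 after sham exposure in ADX mice (0.0181%), 0 after noise in sham-operated mice (1.12%) and 1, Tcap, after noise in ADX mice (0.62%). Unadjusted p fell under 0.05 for 4, 12, 3 and 4 members in that order. No share of all genes was computed at the unadjusted cut, so these counts cannot be read as an excess. DESeq2 called 1, 1, 2 and 2 members, and limma voom called 1, 1, 0 and 0. The members' median log2 fold change was -0.36, -0.743, 0.465 and -0.0753 in the order above. After sham exposure the day groups each held a library high in muscle genes, and after noise in sham-operated mice the night group did. The groups compared after noise in ADX mice held none. The part of these libraries in the medians was not tested. These comparisons share groups and are not independent of each other.

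**Figure D5:**
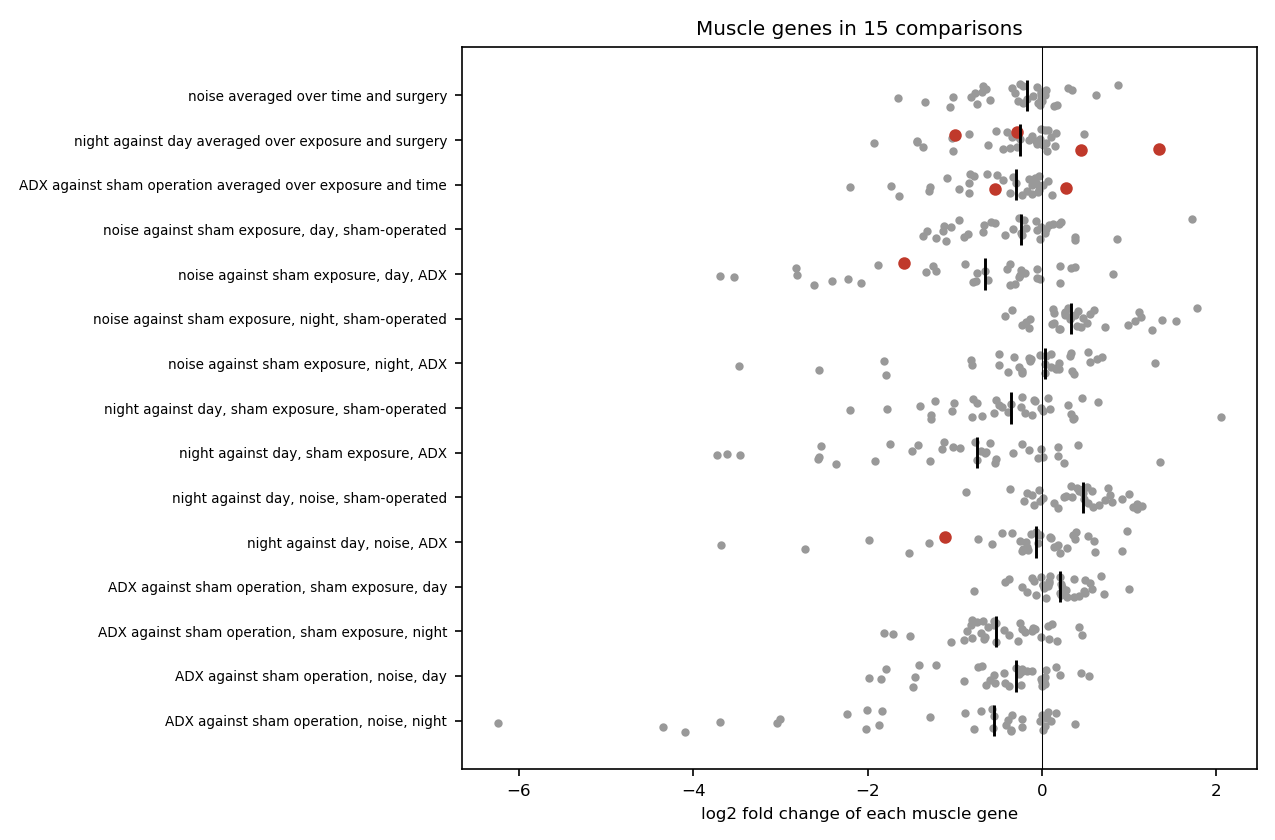
Log2 fold change of each of the 35 muscle genes tested (points) in 15 comparisons, with the members' median as a black bar and genes past the adjusted threshold in red. Grey points spread to -6.24 (Myh1, ADX against sham operation after noise at night) without passing, and the red points are Tcap, Actn3, Ankrd2, Tnnt1, Mybpc1, Mybpc2 and Xirp2.

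Further muscle genes outside the 36 were described from lists of related tissue. The shares of all genes called were 8.7% for any difference among the 8 groups and 4.02% for noise by day in ADX mice. For the averaged comparisons they were 6.01% for night, 3.2% for adrenalectomy and 4.81% for noise. Of 25 other skeletal muscle genes tested, 1 differed among the 8 groups, Ldb3, a Z-disc adaptor (adjusted p = 0.0439 by edgeR). Ldb3 fell by 0.549 on the log2 scale (SE 0.139) after noise by day in ADX mice. Cdh15, the cadherin of muscle satellite cells, was 0.792 higher at night (log2, SE 0.124) and fell by 0.485 on that scale with adrenalectomy (SE 0.124). Ankrd23, an ankyrin-repeat relative of Ankrd2, fell by 0.526 on the log2 scale with noise averaged over time and surgery (SE 0.0494, adjusted p = 2.19e-07 by edgeR). It ran from 15.2 to 32.5 CPM. Of the heart muscle genes, Myl4, an atrial and embryonic light chain, was 0.594 higher with adrenalectomy (log2, SE 0.0957). Tnnt2, the cardiac troponin T, fell by 0.357 on that scale with adrenalectomy (SE 0.0912) and rose by 0.32 with noise averaged (SE 0.0912). The smooth muscle genes Tagln and Cnn1 also rose with noise averaged, by 0.459 (SE 0.0919) and 0.736 (SE 0.154). The tendon gene Thbs4 was 0.603 higher at night (log2, SE 0.0939) and fell by 0.535 with adrenalectomy (SE 0.0939).

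Counting on one strand or both could change some of these levels, since the strand setting is not given in the sources used here. Exon bases of 17 of the 36 members lie in exons of a gene on the other strand, and 19 have none. Among the members that passed a test, Tcap, Actn3, Ankrd2 and Tnnt1 have none, and the share is 5.57% for Mybpc1, 5.32% for Mybpc2 and 1.4% for Xirp2. Of the 36 members, 31 have more than 95% of their 50-base windows to themselves.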

How the data were processed

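Polyadenylated RNA of whole cochleae was sequenced in 24 stranded libraries, 3 in each of 8 groups, as single reads of 50 bases, per the labels' protocols. Libraries were sequenced in pools of 6, and the pool of each library is not given in the sources used here. The authors deposited raw counts of reads per gene symbol. TopHat2 2.0.11, HTSeq 0.6p1 and mm10 are named in the submitters' processing notes; the annotation and the strand setting are not given in the sources used here. Totals ran from 18894996 to 36108962 counts per library. Of 23420 entries, 3340 had no count, and 27 names turned into dates by a spreadsheet held 0.214% of counts and were kept unidentified. Positions come from GENCODE vM21 (GRCm38), which matched 21751 symbols.

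Counts were filtered with filterByExpr and fitted in R 4.3.3 with edgeR 4.0.16 (TMM factors 0.974 to 1.02, quasi-likelihood with robust spread, 1 coefficient per group, all 24 libraries, two-sided F-tests), which left 16607 genes with a common biological coefficient of variation of 0.0991. Benjamini-Hochberg adjustment covered all of them, with a threshold of 0.05. CPM were scaled with the TMM factors, and a prior count of 2 was used for log2 values. The scripts were tested on simulated data.

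The members and the gene lists were chosen with earlier results of these data known. Values in every library are given for the 2 members of each role with the highest mean CPM and for every member past the threshold; genes of other lists could be named where they differed among groups or had the highest mean CPM of their list, and not all of these are named. Other genes named were chosen after their values were seen. Pairs of libraries within a group (24 in all) differed by a chi-square per gene of 6.1 to 41.4, over genes whose counts in the pair summed to 20 or more, so that none repeated another. Alternatives were RLE size factors, DESeq2 1.42.0, limma voom 3.58.1 with library weights, edgeR without the robust option, no filter, a replicate block by letter, library sizes without the members, a fit of only the 6 libraries compared, leaving out each library, and leaving out 3 libraries for their pituitary or cerebellar transcripts. Leaving out the 3 libraries high in muscle genes, and the difference of the day noise change between surgeries, were added after seeing the data.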

Additional observations from a re-analysis of the deposited data

How the results depend on the processing

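For 46 results, not each run under all 35 settings, 1358 values stayed, 78 moved and 69 were weaker. Counts of members called and medians of the log2 fold change could only be labelled as stayed or moved. A count that stayed at 0 is among those that stayed. No log2 fold change of a called member reversed its direction. Night against day averaged over exposure and surgery called 4 members in each fit that left out 1 library. With 1 library left out, the members called ran from 2 to 5 for any difference among groups (5 without day sham exposure sham-operated c), from 1 to 2 for adrenalectomy averaged, from 0 to 1 for noise averaged (1 without day sham exposure sham-operated c), and from 0 to 2 for noise by day in ADX mice. They ran from 0 to 2 for night against day after noise in ADX mice, from 0 to 1 for that after noise in sham-operated mice (1 without day noise sham-operated c), and from 0 to 1 for that after sham exposure in sham-operated mice (1 without night noise sham-operated a). The median share of variance between groups ran from 29.4% to 42.1%. Adrenalectomy averaged called 1 member with RLE size factors, 1 without a filter and 1 with the replicate block. Night against day after noise in ADX mice called 0 with the replicate block, 0 without the 3 libraries high in muscle genes, 0 in the fit of 6 libraries, 0 by voom and 2 by DESeq2. Noise by day in ADX mice called 0 without the 3 libraries high in muscle genes and 2 by DESeq2. DESeq2 called 8 members for any difference among groups, 2 for night against day after noise in sham-operated mice, 1 each after sham exposure in sham-operated and ADX mice, and 1 for adrenalectomy after sham exposure by day. Voom called 1 member for night against day after sham exposure in sham-operated mice, 1 in ADX mice, and 3 for adrenalectomy after sham exposure at night. Night against day after sham exposure in ADX mice called 1 member in the fit of the 6 libraries compared. The cause of these shifts was not tested. Counts as low as 0 for Myh1, Myh2, Myoz1 and Ckm in single libraries limit the precision of their fold changes.

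The letters did not pair the samples throughout. Correlations of the deviations of same-letter libraries ran from -0.264 to 0.41, and 15 of 36 same-letter pairs correlated best with their own letter. Every correlation passed 0.1 in 1 of the 12 comparisons (noise by day in sham-operated mice, 0.195 to 0.289), where each letter correlated best with its own. Each letter also did so for night against day after noise in sham-operated mice (0.0852 to 0.197). The same held for ADX against sham operation after noise by day (0.0733 to 0.142). Whether some groups were handled together by letter was not tested. Under the replicate block the adjusted p of Mybpc2 with adrenalectomy was 0.0663 and that of Tcap for night against day after noise in ADX mice 0.0624 by edgeR, and the members called for night against day averaged stayed at 4.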
